A study of Mus musculus with 4 samples.

Results

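The nuclear-encoded subunits of the respiratory chain were followed across 4 sections of mouse heart. Of the 19465 genes in the count tables, 74 were taken by symbol: names starting with Ndufa, Ndufb, Ndufc, Ndufs or Ndufv (NADH dehydrogenase, complex I, 35 genes), Sdha to Sdhd (succinate dehydrogenase, complex II, 4 genes), names starting with Uqcr (cytochrome bc1, complex III, 7 genes), with Cox4 to Cox8 (cytochrome c oxidase, complex IV, 15 genes) and with Atp5 (ATP synthase, complex V, 13 genes). The assembly factors whose names start with Ndufaf were left out. Complexes follow the names, so Ndufa4l2, whose parent protein sits in complex IV, was counted under complex I. Mitochondrially encoded subunits were not analysed here, nor were Cox4i1, Cox5a, Cox6b1, Ndufa4 and Atp5g2, which are not among the 74.

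The respiratory chain moves electrons from NADH and succinate to oxygen and uses the energy to drive ATP synthase, and heart muscle, which is packed with mitochondria, lives on it. Most subunits are the same in every cell, but complex IV has isoforms: Cox6a2, Cox7a1 and Cox8b are built into heart and skeletal muscle mitochondria, while Cox6a1, Cox7a2 and Cox8a serve other tissues. Cox4i2 and Ndufa4l2 are alternative subunits known for induction by low oxygen through HIF-1.

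Spatial transcriptomes were read on Visium slides from 5 µm sections of fixed, paraffin-embedded hearts, with 1 library per section. All mice were wild type FVB/NJ mice immunized with MyHCα peptide (from the alpha heavy chain of cardiac myosin), and all were given antibodies to PD-1 and CTLA-4, which are immune checkpoint inhibitors (ICIs). The ICI-alone group (2 sections) is the one whose labels record myocarditis, and the antibody group (2 sections), recorded as mitigated, was also given IL-17A neutralizing antibody. The labels give each section a batch number, 1 or 2, shared across the groups and used here as the replicate number. Whether each section is from its own animal is not stated, so the p-values reflect only how these sections vary, which may be technical, and no section without ICIs was analysed here. The sections held 2503 to 3052 spots and 33005923 to 73167202 UMIs (unique molecular identifiers, counted RNA molecules), with the deeper libraries in the ICI-alone group. Spots were called immune-rich when at least 27 of 5000 sampled UMIs fell on a panel of 20 leukocyte genes: 241 and 510 spots with ICIs alone, 215 and 82 with the antibody. All 19 cardiomyocyte markers measured were detected in every section, which fits the heart label, and Actc1, planned beside them, was not analysed here. One antibody section (replicate 2) also held 163 spots rich in atrial genes (Sln, Myl7, Myl4 and Bmp10), and the other sections held 0. In these bulk sums over spots, fewer cardiomyocytes and less RNA per cardiomyocyte cannot be told apart.

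The 74 genes together took 5.78% and 4.17% of all UMIs in the ICI-alone sections, against 8.01% and 6.80% in the antibody sections, so the groups did not overlap in this sum. Within a section, the share per spot was uneven. In ICI-alone replicate 1 its 10th percentile, median and 90th percentile over spots were 2.50%, 6.47% and 9.55%, and in ICI-alone replicate 2 they were 1.62%, 4.32% and 8.35%. In antibody replicate 1 they were 2.61%, 9.33% and 10.6%, and in antibody replicate 2 4.16%, 7.59% and 9.35%. Both medians with the antibody lay above both with ICIs alone, while the 10th percentiles of the replicate 1 sections were close. The spot share followed that of 19 cardiomyocyte markers (sarcomere and calcium handling genes such as Myh6, Ttn and Ryr2): Pearson's r over the spots of a section was 0.97 and 0.98 with ICIs alone, against 0.95 and 0.93 with the antibody, a description over spots that share a library and a total. Among spots with 5% to 10% of UMIs on those markers, the median share of the subunits was 6.31%, 6.25%, 6.93% and 6.44% in the sections in the same order, so the groups still did not overlap but lay close. Among spots with 10% to 15% the medians were 9.14%, 8.67%, 9.75% and 8.77%, and the groups overlapped. The bins were filled differently: 739 and 1584 spots with under 5% with ICIs alone, against 407 and 327 with the antibody.

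**Figure D1:**
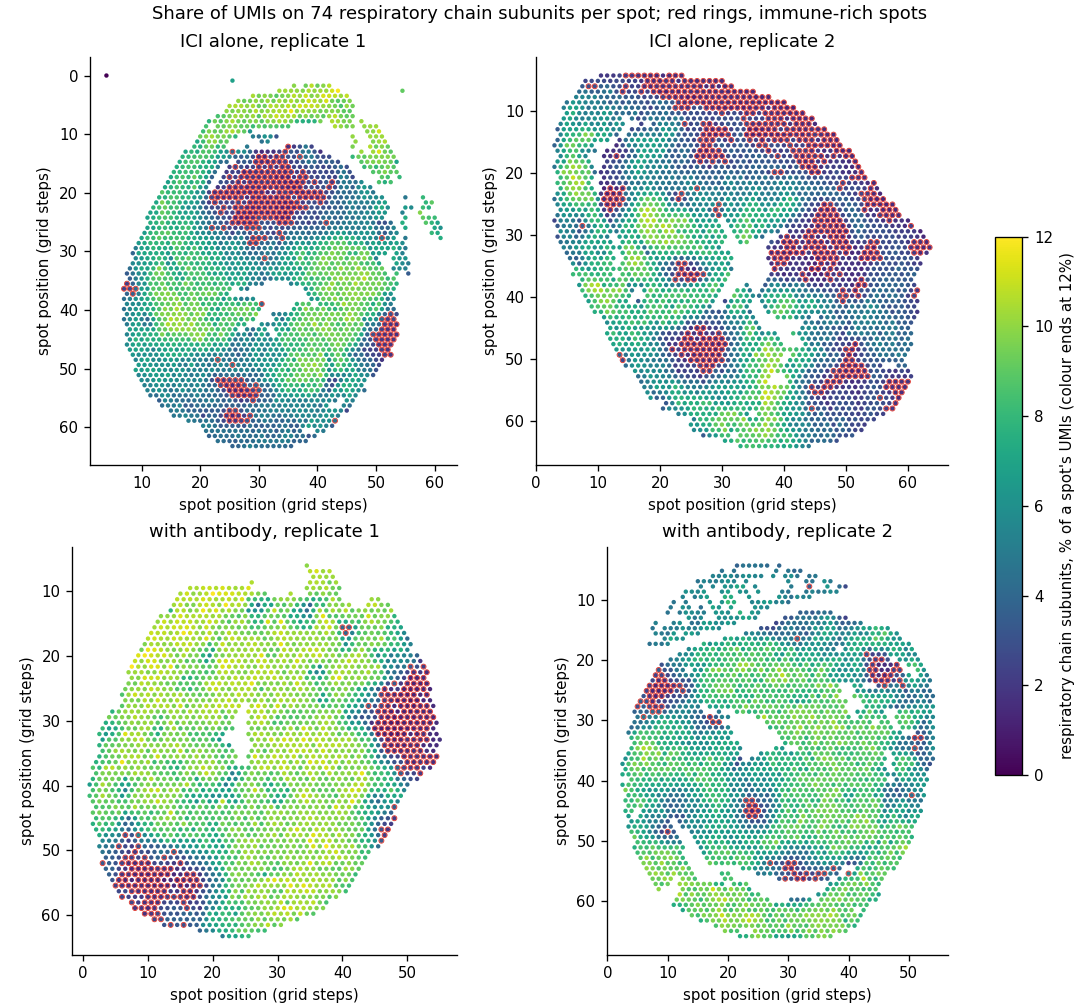
Each dot is a spot under tissue at its position on the slide grid (both axes in grid steps), coloured by the percent of its UMIs on the 74 subunit genes, and red rings mark immune-rich spots. The immune-rich patches are dark in all 4 sections, and much of the remaining tissue of antibody replicate 1 is brighter than that of the ICI-alone sections.

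The first comparison asked how the chain differed where leukocytes gather. The spots were chosen by leukocyte genes, which were left out of the test. Respiratory chain transcripts were far lower in immune-rich spots: 69 of 74 subunit genes fell and 0 rose by edgeR's quasi-likelihood test on section sums with the section as a block (Benjamini-Hochberg adjusted p under 0.05), where 47.1% of all 18226 genes tested were called and 24.7% fell. The median log2 fold change of the subunits was -1.93, against 0.18 over all genes. Levels lay lower in immune-rich spots in all 4 sections for 69 subunits and for 30.2% of all genes. The summed level of the 74 genes was 20421 and 17258 CPM (UMIs scaled to a common library total) in immune-rich spots under ICIs alone and 18372 and 24892 CPM under the antibody. In the other spots it was 63028 and 48031 CPM with ICIs alone, against 86562 and 69962 CPM with the antibody, so the classes did not overlap. Sums are plain CPM, and values of single genes below are CPM after TMM scaling. Errors given after log2 fold changes are standard errors. Levels of different genes are not compared, since the probes per gene are not given in the sources used here.

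The fall ran through every complex. All 35 complex I genes fell (median log2 fold change -1.99), as did all 4 of complex II (-1.98), all 7 of complex III (-2.0) and all 13 of complex V (-1.92). In complex IV, 10 of 15 fell and the median was -1.23. Those 15 do not include Cox4i1, Cox5a or Cox6b1, so the median describes only the genes measured. Complex I ranged from -2.52 to -0.43, complex III from -2.48 to -1.86 and complex V from -2.73 to -1.36. Complex IV ranged from -3.74 to 0.64 (Cox6b2, a gene with few counts), so it was the most mixed among the genes measured. The gene with the most counts in each complex shows the size. Atp5a1, the alpha subunit of the catalytic head of ATP synthase, stood at 940.0 and 768 CPM under ICIs alone, and 665 and 1058 CPM under the antibody, in immune-rich spots and at 3558, 2643, 5303 and 3744 CPM in the other spots of the same sections (log2 fold change -2.13 ± 0.27, edgeR adjusted p = 1.77e-04). The classes did not overlap, and antibody replicate 1 had both the lowest immune-rich and the highest other value. Sdhb, the iron-sulfur subunit of succinate dehydrogenase, fell by 2.02 ± 0.24 on the log2 scale (edgeR adjusted p = 1.26e-04). Uqcrh, the hinge protein of complex III, fell by 1.95 ± 0.21 (edgeR adjusted p = 6.45e-05), and Ndufa2, an accessory subunit of complex I, by 1.59 ± 0.21 (edgeR adjusted p = 2.65e-04).

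Apart from the muscle isoforms, the steepest falls included those of Atp5g1, a gene for the c-ring of ATP synthase (-2.73), Ndufb10 (-2.52), the complex III core protein Uqcrc2 (-2.48), Ndufa5 (-2.39), Uqcrc1 (-2.36) and Atp5g3 (-2.35). Atp5g1 stood at 36.4 and 22.6 CPM under ICIs alone, and 34.0 and 71.0 CPM under the antibody, in immune-rich spots and at 234, 132, 367 and 339.7 CPM in the other spots of the same sections. Its immune-rich values lay below its other values in each section, and both classes were higher in antibody replicate 2 than in either ICI-alone section. The gentlest fall was that of Ndufa4l2 (log2 fold change -0.43 ± 0.11, edgeR adjusted p = 0.00901). Its call was lost with scaling by library size alone (-0.09), at a threshold of 5% of spots (-0.42) and with spots ranked by T cell (-0.24) or macrophage markers (-0.25). Its partner in the low-oxygen pair, Cox4i2, fell by 1.23 ± 0.16 (edgeR adjusted p = 2.46e-04).

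Beside the subunits, all 19 cardiomyocyte markers fell in immune-rich spots, with a median of -3.64. Their summed level ranged from 5162 to 17218 CPM in immune-rich spots and from 52897 to 111627 CPM elsewhere, with no marker at 0. Of 10 smooth muscle and pericyte markers 8 fell (median -1.54), and of 10 endothelial markers 9 fell (median -1.31), where 24.7% of all genes fell. The part of any of these cells in the fall of the subunits, Cox4i2 included, was not tested. With spots ranked by T cell markers the subunits' median was -0.97 and with macrophage markers -1.44, and 67 of the 74 fell under each, where 16.4% and 15.8% of all genes fell.

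**Figure D2:**
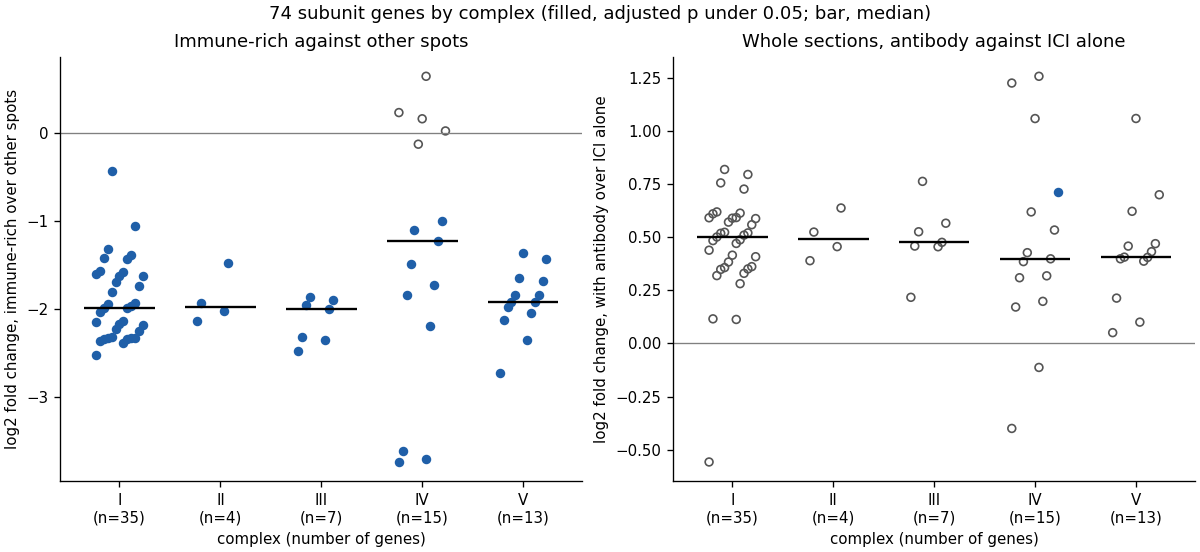
Log2 fold changes of the 74 subunit genes by complex, 1 circle per gene, for immune-rich against other spots (left) and for the antibody against ICIs alone in whole sections (right). Filled circles passed an edgeR adjusted p of 0.05 and black bars are medians. On the left 69 genes are filled and lie below 0, and on the right only Cox4i2 is filled.

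The complex IV isoforms separated most widely between the spot classes. The muscle isoforms Cox7a1 (chromosome 7, 30184171 to 30186030 in the assembly GRCm38.p6), Cox6a2 (chromosome 7, 128205435 to 128206366) and Cox8b (chromosome 7, 140898942 to 140900446) were the 3 subunits that fell most in immune-rich spots. Of their ubiquitous counterparts, Cox6a1 (chromosome 5, 115345652 to 115348958) and Cox8a (chromosome 19, 7215158 to 7217616) did not pass the test, and Cox7a2 (chromosome 9, 79755241 to 79771422) fell less than its muscle partner. Cox6a2 and Cox6a1 are regulatory subunits of the enzyme, as are the Cox7a and Cox8 proteins, small peptides that span the inner membrane.

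RefSeq promoter entries (GRCm38.p6) were found for 58 of the 74 genes, and the sequences of 5 isoform genes are shown because the muscle and the ubiquitous forms separated between the spot classes. Cox6a2 had no entry. Each run is the 250 bases before the annotated start, 5′ to 3′ on the gene's strand, and the capitals mark CG dinucleotides, which are dense in the promoters of many broadly used genes. The windows are chr7:30183921-30184170 (Cox7a1, plus strand), chr9:79759854-79760103 (Cox7a2, minus), chr7:140900447-140900696 (Cox8b, minus), chr19:7217617-7217866 (Cox8a, minus) and chr5:115348959-115349208 (Cox6a1, minus). The Cox7a2 window lies inside the annotated gene, ahead of the start that its entry uses.
Cox7a1: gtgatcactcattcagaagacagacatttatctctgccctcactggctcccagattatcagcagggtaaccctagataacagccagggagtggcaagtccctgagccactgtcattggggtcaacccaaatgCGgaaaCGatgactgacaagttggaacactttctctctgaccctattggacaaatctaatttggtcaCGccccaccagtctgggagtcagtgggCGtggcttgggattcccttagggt
Cox7a2: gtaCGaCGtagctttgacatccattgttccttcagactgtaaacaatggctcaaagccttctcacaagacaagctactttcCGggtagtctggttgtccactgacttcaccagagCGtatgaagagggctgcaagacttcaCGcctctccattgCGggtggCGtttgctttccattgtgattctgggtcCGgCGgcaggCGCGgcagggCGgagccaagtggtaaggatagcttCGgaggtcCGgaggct
Cox8b: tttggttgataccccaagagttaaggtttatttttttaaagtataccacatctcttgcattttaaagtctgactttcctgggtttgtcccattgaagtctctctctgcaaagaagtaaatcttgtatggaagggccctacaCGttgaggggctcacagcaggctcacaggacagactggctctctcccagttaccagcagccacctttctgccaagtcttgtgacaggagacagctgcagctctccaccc
Cox8a: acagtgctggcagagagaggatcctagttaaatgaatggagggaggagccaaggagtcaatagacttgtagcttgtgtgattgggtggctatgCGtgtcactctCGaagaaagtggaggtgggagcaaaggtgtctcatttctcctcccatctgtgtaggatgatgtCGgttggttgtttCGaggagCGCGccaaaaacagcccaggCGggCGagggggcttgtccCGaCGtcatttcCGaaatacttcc
Cox6a1: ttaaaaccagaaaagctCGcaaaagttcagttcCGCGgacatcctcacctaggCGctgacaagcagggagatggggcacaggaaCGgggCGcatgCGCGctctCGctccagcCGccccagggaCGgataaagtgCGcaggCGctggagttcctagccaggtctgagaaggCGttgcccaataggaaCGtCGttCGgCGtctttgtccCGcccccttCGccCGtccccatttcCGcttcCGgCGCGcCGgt

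The muscle isoform windows held few CG dinucleotides, 4 in Cox7a1 and 1 in Cox8b, and the ubiquitous ones more, with 14 in Cox7a2, 11 in Cox8a and 26 in Cox6a1. The median was 14 over the 58 subunit genes with an entry and 6 over 27025 genes. Letter strings of mitochondrial regulators were searched on both strands of these windows. A string like that of NRF1 (GCGC, any 2 bases, GCGC), a master activator of respiratory genes, was in 13 of 58 subunit windows (22.4%) and in 5.64% of all genes' windows. The core string of GABP (CCGGAAG), also known as NRF2 in this pathway, was in 10 (17.2%, against 7.83%), and that of the estrogen-related receptors (AAGGTCA) in 5 (8.62%, against 4.70%). A loose string like that of the muscle factor MEF2 (CTA, any 4 bases, TAG) was in 1 (1.72%, against 3.70%), Cox5b. Of the 5 windows printed, Cox6a1 held the NRF1 and GABP strings and the others held none of the 4. The NRF1 and GABP strings hold CG themselves, and CG density was not corrected for. These are matches of letters in a short window, which may overlap, and not measured binding.

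Cox7a1 stood at 229.6 and 98.0 CPM under ICIs alone, and 193 and 465 CPM under the antibody, in immune-rich spots and at 2845, 1399, 4975 and 3249 CPM in the other spots of the same sections (log2 fold change -3.74 ± 0.32, edgeR adjusted p = 2.33e-05). Cox6a2 stood at 654 and 311 CPM under ICIs alone, and 293 and 759 CPM under the antibody, in immune-rich spots and at 6506, 4162, 8409.7 and 5892 CPM in the other spots of the same sections (log2 fold change -3.71 ± 0.35, edgeR adjusted p = 3.77e-05). Both classes were apart by more than the spread of the sections, and antibody replicate 2 had the smallest drop of each gene. Cox8b stood at 151 and 69.5 CPM under ICIs alone, and 106 and 222 CPM under the antibody, in immune-rich spots and at 1636, 999, 2244 and 1499 CPM in the other spots of the same sections (log2 fold change -3.61 ± 0.28, edgeR adjusted p = 1.67e-05).

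The ubiquitous partners behaved unlike each other. Cox6a1 stood at 770.4 and 672 CPM under ICIs alone, and 499.7 and 533 CPM under the antibody, in immune-rich spots and at 581, 671, 467 and 488 CPM in the other spots of the same sections (log2 fold change 0.16 ± 0.15, edgeR adjusted p = 0.405). No section had less of it in immune-rich spots, and with scaling by library size alone it passed as a rise (0.50, edgeR adjusted p = 0.0264), a scaling that moved the median of all genes from 0.18 to 0.51. Cox8a stood at 354 and 286 CPM under ICIs alone, and 273 and 293 CPM under the antibody, in immune-rich spots and at 308, 307, 288 and 279.6 CPM in the other spots of the same sections (log2 fold change 0.02 ± 0.13, edgeR adjusted p = 0.902). It was lower in 2 of 4 sections, and the sign of its log2 fold change turned under some settings. Cox7a2 fell, from 1224, 942, 1313 and 1045 CPM in the other spots of the sections to 534, 421, 284 and 389 CPM in the immune-rich ones (log2 fold change -1.49 ± 0.21, edgeR adjusted p = 3.91e-04).

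The remaining complex IV members that did not pass were Cox7c (log2 fold change -0.13), Cox6b2 (0.64) and Cox8c (0.23). Cox6b2 and Cox8c are known as testis isoforms and had few counts: in whole sections Cox6b2 ranged from 1.20 to 2.05 CPM and Cox8c from 0.165 to 0.625 CPM. Cox6b2 passed as a rise with library-size scaling (0.96, with 37.2% of all genes higher) and with spots thinned to 2000 UMIs (0.84, with 20.9% higher).

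The log2 ratio of UMIs on the 3 muscle isoforms to UMIs on the 3 ubiquitous ones puts this in 1 number per section and needs no library scaling. Only changes of the ratio can be read, since probes differ between genes. In immune-rich spots it was -0.68 and -1.53 with ICIs alone, against -0.84 and 0.25 with the antibody, and in the other spots it was 2.38 and 1.77 with ICIs alone, against 2.92 and 2.55 with the antibody. It was lower in immune-rich spots in 4 of 4 sections, by 3.10 ± 0.61 (SD, n = 4) on the log2 scale, with an exact two-sided sign-flip p of 0.125, the smallest that 4 sections allow. The pairs taken singly were lower by 3.87 ± 0.77 (Cox6a2 to Cox6a1), 3.63 ± 0.62 (Cox8b to Cox8a) and 2.24 ± 0.58 (Cox7a1 to Cox7a2). Set against cardiomyocyte markers, the muscle isoforms shifted far less between the classes: their ratio to those markers was lower in immune-rich spots by 0.22 ± 0.06 (SD, n = 4 sections), while the ratio of the ubiquitous isoforms to them was higher by 2.88 ± 0.57.

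**Figure D3:**
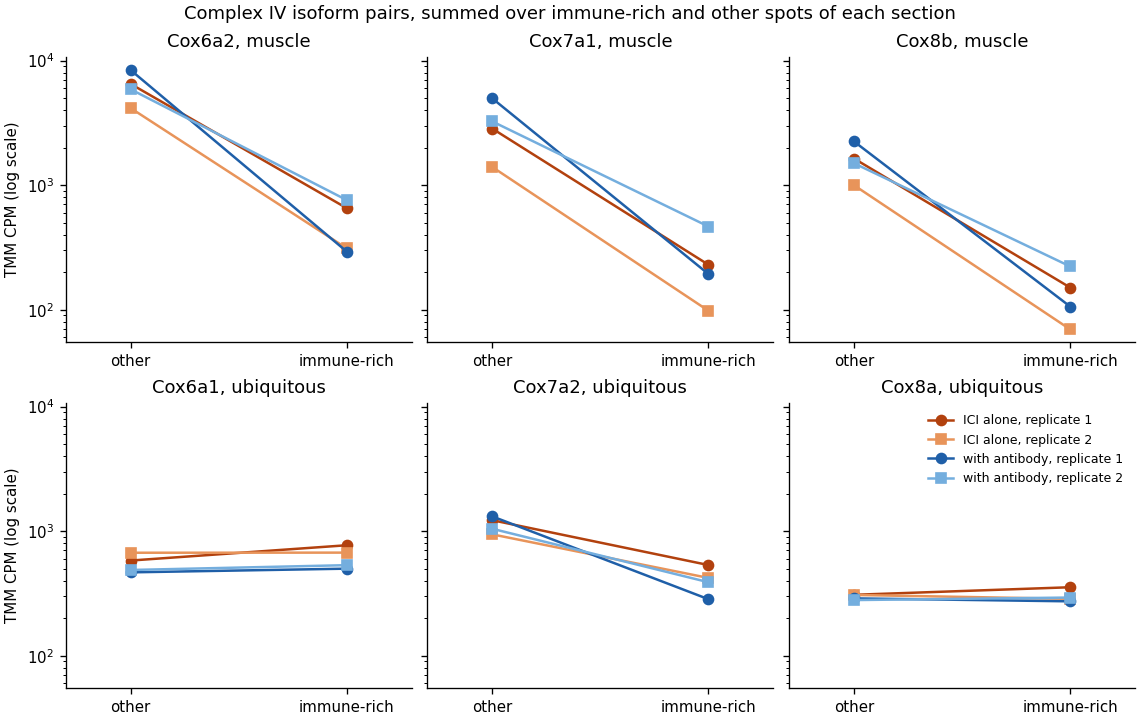
TMM-normalized CPM (log axis) of 6 complex IV isoform genes in the other and the immune-rich spots of each section, with 1 line per section. The lines of the 3 muscle isoforms drop steeply in every section, those of Cox7a2 drop less, and those of Cox6a1 and Cox8a stay nearly level.

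Distance from the immune-rich spots was then read in steps on the hexagonal grid, as a description with no test. The summed CPM of the subunits was higher at each further step in each section. At 1 step it was 34487 and 26669 CPM with ICIs alone, against 32799 and 38644 with the antibody. At 3 steps it was 53767, 47438, 71280.3 and 61927 CPM in the same order, and beyond 5 steps 77469, 71783, 96702 and 79331. At 0 and 1 steps the groups overlapped, and from 2 steps outward both antibody sections lay above both ICI-alone sections. The muscle to ubiquitous isoform ratio was also higher farther out, from 1.07, 0.31, 1.09 and 1.39 at 1 step to 2.71, 2.47, 3.06 and 2.75 beyond 5 steps (log2, same order of sections).

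The ratio of subunit UMIs to cardiomyocyte marker UMIs ran the other way. It was 1.14, 1.74, 1.21 and 0.53 (log2) in immune-rich spots, 0.17, 0.39, 0.15 and -0.02 at 1 step, and -0.33, -0.27, -0.39 and -0.36 beyond 5 steps. Relative to the markers, subunit transcripts were thus higher in immune-rich than in other spots in 4 of 4 sections, by 1.43 ± 0.43 (SD, n = 4, exact two-sided sign-flip p = 0.125). Complex V had the largest difference of the complexes in this ratio (1.57 ± 0.43) and complex IV, which holds the muscle isoforms, the smallest (1.20 ± 0.40). Macrophage and neutrophil markers were also set beside this ratio. The sum of 15 macrophage markers ranged from 3787 to 7179 CPM there and from 1391 to 3673 CPM elsewhere. Of these, 3 belong to the panel that defined the spots, and of the other 12, 6 rose and 5 fell (median 0.10, against 0.18 over all genes). Of 10 neutrophil markers 7 rose, with sums from 351 to 1154 CPM there and from 36.4 to 629.7 CPM elsewhere. Of all genes in that fit 22.4% rose and 24.7% fell. No marker of these lists was at 0 in a whole section, and their part in the ratio was not tested.

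**Figure D4:**
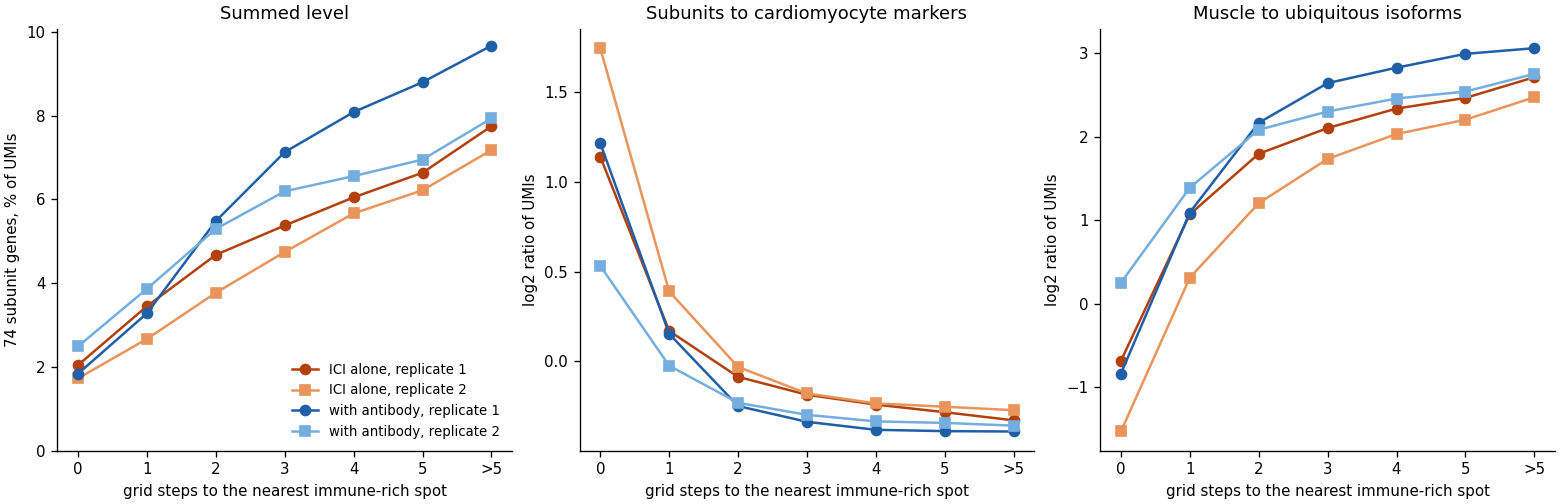
Values by distance from the nearest immune-rich spot (0 is the immune-rich spots themselves) for the 4 sections: percent of UMIs on the 74 subunit genes (left), log2 ratio of their UMIs to those of 19 cardiomyocyte markers (middle), and log2 ratio of 3 muscle to 3 ubiquitous complex IV isoforms (right). The left and right panels are higher farther out, and the middle panel is lower, with most of the difference within 2 steps.

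The second comparison asked how the chain differed over whole sections when IL-17A was neutralized. Most subunits lay higher with the antibody, but the spread between the sections was wide and 1 of 74 passed: Cox4i2 rose and 0 fell (edgeR adjusted p under 0.05), where 11.8% of 18817 genes were called, 3.03% higher and 8.81% lower. The log2 fold change was above 0 in 71 subunits, as in 55.5% of all genes, and its median was 0.46, against 0.09 over all genes. In 43 subunits both antibody sections lay above both ICI-alone sections (36% of all genes did), and in 3, Ndufa4l2, Cox6a1 and Cox8a, both lay below (32.2% of all genes). The other 28 overlapped. Within batch 1 the median difference was 0.35, with 68 subunits higher with the antibody, and within batch 2 it was 0.61, with 71 higher. The median was 0.75 without ICI-alone replicate 1, 0.21 without ICI-alone replicate 2, 0.32 without antibody replicate 1 and 0.63 without antibody replicate 2.

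With the batch number as a replicate block, 7 subunits passed, all higher: Cox4i2 (0.71), the complex I subunits Ndufb2 (0.83) and Ndufs5 (0.79), the complex V subunits Atp5g1 (1.14) and Atp5f1 (0.72) and the little-counted Cox8c (1.29) and Cox7b2 (1.27). That fit called 20.4% of all genes and 8.08% as higher. DESeq2 called 11 subunits, all higher, with 4.25% of all genes called higher. Without ICI-alone replicate 1, edgeR called 21 higher and 1 lower (23.6% of all genes called). Without ICI-alone replicate 2 it called 1, Cox8c (12.7% of all genes), and without either antibody section 0.

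Complex IV held the widest range of log2 fold changes, from -0.40 to 1.26. The upper end was Cox8c, at 0.165 to 0.625 CPM, followed by Cox7b2 (1.23), at 0.382 to 1.46 CPM. Neither passed, and complex I ranged from -0.56 to 0.82. Cox4i2, the alternative to the main Cox4 subunit, stood at 11.5 and 9.57 CPM with ICIs alone, against 18.9 and 15.7 CPM with the antibody (log2 fold change 0.71 ± 0.18, edgeR adjusted p = 0.0463). The groups did not overlap, but the call was lost without ICI-alone replicate 2 (edgeR adjusted p = 0.0783), without antibody replicate 1 (0.192) and without antibody replicate 2 (0.0802), and with limma on mean log values per spot (0.108). Rgs5, a pericyte marker, rose in the same sections (109 and 86.3 CPM against 199 and 183 CPM, log2 fold change 0.97, edgeR adjusted p = 0.0273), while of the 10 smooth muscle and pericyte markers 1 rose, 2 fell and none was at 0, and their part in the Cox4i2 result was not tested. The summed level of these 10 markers was 5255 and 5642 CPM with ICIs alone, against 3821 and 4111 with the antibody. Rgs5, Tagln, Acta2 and Abcc9 stood at 109, 55.3, 304 and 98.5 CPM in ICI-alone replicate 1, so most of the sum came from other genes of the list. Tagln (-1.03) and Acta2 (-0.79) fell, and Abcc9 did not pass (1.09, edgeR adjusted p = 0.0582). Ndufa4l2, the other low-oxygen subunit, had the opposite sign: 47.0 and 63.7 CPM with ICIs alone, against 41.6 and 33.6 with the antibody (log2 fold change -0.56 ± 0.19, edgeR adjusted p = 0.0904), with no overlap and no call.

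The muscle isoforms had large differences with large errors. Cox7a1 stood at 2264 and 994 CPM with ICIs alone, against 3900.1 and 2887 CPM with the antibody (log2 fold change 1.06 ± 0.46, edgeR adjusted p = 0.146). Cox6a2 stood at 5194 and 2960.5 CPM against 6579 and 5228 CPM (log2 fold change 0.53 ± 0.44, edgeR adjusted p = 0.39). For each, ICI-alone replicate 2 was the lowest section and antibody replicate 1 the highest, and for Cox6a2 the remaining sections were nearly equal. Cox8b stood at 1305 and 709 CPM against 1761 and 1333 CPM (log2 fold change 0.62 ± 0.37, edgeR adjusted p = 0.255).

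Their ubiquitous partners had smaller differences, 2 of them with the opposite sign. Cox6a1 stood at 554 and 609 CPM with ICIs alone, against 425 and 457 CPM with the antibody (log2 fold change -0.40 ± 0.22, edgeR adjusted p = 0.221). Cox8a stood at 287 and 274 CPM against 258 and 261 CPM (log2 fold change -0.11 ± 0.18, and 0.06 with a filter at 10 CPM). Cox7a2 overlapped between the groups (log2 fold change 0.17 ± 0.28), and none of the 3 passed. The muscle to ubiquitous ratio was 2.23 and 1.52 (log2) with ICIs alone, against 2.81 and 2.51 with the antibody, a difference of 0.79 with a pooled SD of 0.39 (n = 2 per group, exact two-sided permutation p = 0.33, the smallest that 2 against 2 allows). Without ICI-alone replicate 2 the difference was 0.43.

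After Cox4i2, the smallest p belonged to Ndufb2, Atp5g1 and Atp5f1. Ndufb2, an accessory subunit of complex I, stood at 17.0 and 11.0 CPM with ICIs alone, against 24.1 and 24.4 CPM with the antibody (log2 fold change 0.80 ± 0.22, edgeR adjusted p = 0.0553). Atp5g1 stood at 188 and 96.8 CPM against 291 and 303 CPM (log2 fold change 1.06 ± 0.31, edgeR adjusted p = 0.0652). Atp5f1, a subunit of the peripheral stalk of ATP synthase, stood at 167 and 122 CPM against 239 and 230.2 CPM (log2 fold change 0.70 ± 0.21, edgeR adjusted p = 0.0679). In these 3 genes the antibody sections lay close together and above both ICI-alone sections. The genes with the most counts in each complex did not pass either. Atp5a1 stood at 2915 and 2001 CPM against 4211 and 3355 CPM (log2 fold change 0.62 ± 0.37, edgeR adjusted p = 0.256). Sdhb overlapped between the groups (log2 fold change 0.39 ± 0.34), as did Ndufa2 (0.41 ± 0.30), while Uqcrh did not (0.48 ± 0.31). By complex the medians were close: 0.50 for complex I, 0.49 for II, 0.48 for III, 0.40 for IV and 0.41 for V.

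Markers of several cell types differed between the groups in the same sums. Of 19 cardiomyocyte markers 0 passed, 18 had log2 fold changes above 0 and the median was 0.68, with summed levels of 66944 and 43024 CPM with ICIs alone, against 101801 and 84654 CPM with the antibody. Of 12 fibroblast markers 8 fell, and their sum was 9959.9 and 23197 CPM against 2908 and 3112. Of 15 macrophage markers 11 fell (3293 and 4398 CPM against 1677 and 2275), and of 10 neutrophil markers 7 fell (399.6 and 738 CPM against 76.2 and 60.7). Of all genes 8.81% fell. Of 12 T cell markers 0 passed, 10 had log2 fold changes above 0 and the median was 0.16. Spots called by T cell markers numbered 113 and 111 with ICIs alone, against 196 and 190 with the antibody. Of 9 skeletal muscle and 10 adipocyte markers, whose cells can also be rich in mitochondria, 0 passed. No marker of these lists was at 0, and their part in the subunits' difference was not tested. The ratio of subunit UMIs to cardiomyocyte marker UMIs was -0.21 and -0.05 (log2) with ICIs alone, against -0.35 and -0.32 with the antibody. It was lower with the antibody by 0.20 (pooled SD 0.08, n = 2 per group, exact two-sided permutation p = 0.33), by 0.12 without ICI-alone replicate 2, and the sign turned (0.21) with the troponin genes Tnnt2 and Tnni3 alone as the denominator. The direction of the ratio's difference thus depended on which cardiomyocyte genes were the denominator.

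Away from infiltrate, in spots at least 4 steps from every immune-rich spot (1290 to 1932 per section), 0 subunits passed, as did 0 of 15414 genes by edgeR (0% called). At an unadjusted p under 0.05 edgeR gave 7 subunits and 3555 genes (23.1%). DESeq2 called 3 subunits higher, Atp5g1, Cox4i2 and Ndufs5, with 2.3% of all genes. With the replicate block 5 subunits passed, all higher: Atp5g1 (0.87), Cox4i2 (0.76), Ndufb2 (0.62), Ndufs5 (0.64) and Cox7a1 (0.79). That fit called 9.53% of all genes, 3.14% as higher. The summed level was 73167 and 65242 CPM with ICIs alone, against 95339.8 and 75949 CPM with the antibody, and antibody replicate 2 lay closer to the ICI-alone sections than to its partner. The median log2 fold change was 0.34 (all genes 0.03), 0.04 without antibody replicate 1, 0.17 without ICI-alone replicate 2 and 0.52 without antibody replicate 2. Within batches the median was 0.45 (batch 1, 73 higher) and 0.18 (batch 2, 58 higher). The log2 fold change was above 0 in 69 subunits and in 53.1% of all genes, and both antibody sections lay above both ICI-alone sections in 33 subunits and in 29.5% of all genes.

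In these remote spots Cox4i2 stood at 12.6 and 11.6 CPM with ICIs alone, against 23.5 and 17.7 CPM with the antibody (log2 fold change 0.77 ± 0.19, edgeR adjusted p = 0.129). Atp5g1 stood at 236 and 166 CPM against 377 and 344 CPM (log2 fold change 0.85 ± 0.23, edgeR adjusted p = 0.138). Neither overlapped between the groups. The isoform ratio differed by 0.40 here (pooled SD 0.24, n = 2 per group, exact two-sided permutation p = 0.33), against 0.79 over whole sections. Cardiomyocyte markers had summed levels in these spots of 90713 and 77976 CPM with ICIs alone, against 124813 and 96914 CPM with the antibody, and the ratio of subunits to them was lower with the antibody by 0.09 (pooled SD 0.03). With Tnnt2 and Tnni3 as the denominator the sign turned here too (0.28, pooled SD 0.08). Neutrophil, fibroblast and macrophage marker sums were lower in both antibody sections than in both ICI-alone sections in the remote spots as well. The summed level of the neutrophil markers was 219.7 and 402 CPM with ICIs alone, against 14.5 and 34.6 CPM, that of the fibroblast markers 6541 and 14034 CPM against 1876 and 2737, and that of the macrophage markers 2486 and 2987 CPM against 1089 and 1944. In the replicate-block fit that gave 5 subunits, 7 of 8 neutrophil markers tested, 9 of 12 fibroblast markers and 8 of 15 macrophage markers fell. In the same fit 3 of 19 cardiomyocyte markers and 2 of 10 endothelial markers rose, and of 12 T cell markers 0 rose and 0 fell. No marker of these lists was at 0, and their part in the subunits' difference was not tested.

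Whether the drop in immune-rich spots differed between the treatments was tested as an interaction. None of the 74 subunits passed (edgeR, 2.21% of 18226 genes called), 5 had an unadjusted p under 0.05 (16.4% of all genes did), and DESeq2 called 0 as well. The median interaction was -0.51, a deeper drop with the antibody, against 0.07 over all genes. It was above 0 in 5 subunits and in 55.5% of all genes. Markers of other cells moved in the same test: 5 of 10 neutrophil markers passed with an interaction above 0 (list median 1.94), and of 10 endothelial markers 3 passed below 0 and 1 above (list median -0.82). The neutrophil sums were 861 and 1154 CPM with ICIs alone, against 458 and 351 CPM with the antibody, in immune-rich spots, and 335, 629.7, 36.4 and 47.1 CPM in the other spots. The endothelial sums ranged from 771 to 874 CPM in immune-rich spots and from 1201 to 1835 CPM elsewhere. None of the 19 cardiomyocyte markers passed, and their median was -0.03. No marker of these lists was at 0, and their part in the subunits' interaction was not tested. The smallest p values belonged to the complex I subunits Ndufs8 (-0.96 ± 0.35, edgeR adjusted p = 0.179), Ndufa8 (-0.90 ± 0.34), Ndufa9 (-0.81 ± 0.36) and Ndufs4 (-0.73 ± 0.33). The result turned on antibody replicate 2, which has 82 immune-rich spots: without it 55 subunits passed, all with a deeper drop with the antibody, where 8.27% of all genes were called in that direction. That fit leaves the antibody group with 1 section, assumed to vary like the other group. For Atp5a1, Cox7a1 and Cox6a2, whose values are given above, the drop was deepest in antibody replicate 1 and shallower in antibody replicate 2.

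At the tissue edge, in spots with fewer than 6 neighbours under tissue, 0 subunits passed by edgeR (2.14% of 16006 genes were called), 45 had an unadjusted p under 0.05 (22.7% of all genes did), and DESeq2 called 10, all lower (1.92% of all genes). The differences were small: the median log2 fold change of edge over interior spots was -0.20, against -0.03 over all genes, and -0.08 with library-size scaling, which put the median of all genes at 0.10. In 58 subunits the edge was lower in all 4 sections, as in 19.4% of all genes. The summed level at the edge was 58302 and 42665 CPM with ICIs alone, against 70708 and 61168 with the antibody, against 57717, 41543, 80917 and 69913 inside. In these plain CPM the edge was lower in the antibody sections and slightly higher in the ICI-alone sections. The smallest p values were those of Cox4i2 (-0.46 ± 0.11, edgeR adjusted p = 0.0654), the acyl carrier protein Ndufab1 (-0.27 ± 0.08), Cox7a2 (-0.27 ± 0.08) and Ndufs7 (-0.30 ± 0.09). Of 6 epicardial and mesothelial markers, which mark the outer surface, 4 rose at the edge, with sums from 24.2 to 155 CPM there and from 12.5 to 21.4 CPM inside. Of 9 adipocyte markers tested 3 rose there (list median 1.46), where 1.32% of all genes rose. The part of either list in the subunits' difference was not tested. Of 5 atrial markers 2 rose at the edge, Myl7 (4.82) and Sln (4.62). The sum of the 5, Nppa included, was 30323 CPM at the edge of antibody replicate 2 and 1196 CPM inside it. In the other sections it was lower at the edge (2245, 3788 and 286 CPM) than inside (3197, 5665 and 429 CPM). Nppa alone stood at 2405, 5639 and 214 CPM in the remote spots of those sections, in the same order. Myl4 stood at only 3.56, 4.40 and 3.53 CPM over the whole of them. No atrial marker was at 0. Leaving out atrial-rich spots took the edge of antibody replicate 2 from 609 to 453 spots, and the subunits' median was then -0.19, with 0 past the threshold.

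Atrial-rich spots could be set beside the rest of their section, immune-rich spots included, in antibody replicate 2 alone, with no replicate. The 163 atrial-rich spots held 55721 CPM on the 74 subunits (95% exact Poisson interval 55417 to 56026, counting error only), and the rest of the section 68881 CPM (68788 to 68974). Cox8b was lower in atrial-rich spots by 0.62 on the log2 scale, Cox6a2 by 0.46 and Cox7a1 by 0.39, and the cardiomyocyte marker sum by 0.24. Without these spots 1 subunit was past the threshold in the whole-section comparison, Cox4i2 (11.2% of all genes called), a setting chosen after the data were seen.

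Other genes of mitochondrial energy metabolism were read by list in the same fits. In the fit of immune-rich spots, 22.4% of all genes rose and 24.7% fell. In immune-rich spots, 41 of 42 assembly factors fell (median -0.88), such as Lyrm7, a complex III assembly factor (-2.71, edgeR adjusted p = 1.51e-05). Of 19 genes of the TCA cycle and pyruvate dehydrogenase 18 fell (median -2.22). Of 21 electron carrier and nucleotide exchange genes 19 fell and 1 rose, with the coenzyme Q genes Coq9 (-2.73) and Coq8a (-3.62) and the muscle mitochondrial creatine kinase Ckmt2 (-3.92) among the lowest p values. Of 19 regulators of mitochondrial genes 14 fell and 1 rose, with the lowest p values for falls in Ppara (-4.00), the coactivator Ppargc1a (-3.89) and the estrogen-related receptor Esrrg (-3.48), and a lowest log2 fold change in the list of -4.16. Glycolysis genes split: 7 of 15 rose and 5 fell, the latter including the muscle forms Eno3 (-4.23), Pgam2 (-3.85) and Pfkm (-3.29). Of 10 HIF targets, a list that holds Cox4i2, Ndufa4l2 and the glycolysis genes Slc2a1 and Ldha, 3 rose and 4 fell. The glucose transporter Slc2a1 (2.58) and the carbonic anhydrase Car9 (1.76) rose, while Cox4i2 (-1.23) and Ndufa4l2 (-0.43) were among those that fell.

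Over whole sections few genes of these lists passed for treatment: 0 of 42 assembly factors and 0 of 19 TCA cycle genes passed, with medians of 0.22 and 0.51. Esrrg, 1 of 19 regulators, rose from 18.7 and 11.1 CPM with ICIs alone to 31.8 and 28.2 CPM with the antibody (log2 fold change 1.01 ± 0.24, edgeR adjusted p = 0.0433). The uncoupling protein gene Ucp3, 1 of 21 carrier genes, rose from 6.27 and 3.31 CPM with ICIs alone to 15.2 and 16.2 CPM with the antibody (log2 fold change 1.71 ± 0.29, edgeR adjusted p = 0.0237). Of 15 glycolysis genes 2 fell, the lactate exporter Slc16a3 (log2 fold change -1.63, edgeR adjusted p = 0.0245) and Pgam1 (-0.79, adjusted p = 0.0363). Of 10 HIF targets 2 rose, Cox4i2 and the prolyl hydroxylase Egln3 (0.90, edgeR adjusted p = 0.045). With the replicate block, 7 of 19 regulators rose and 2 fell, 7 of 21 carrier genes rose and 1 fell, 6 of 19 TCA cycle genes rose and 3 of 42 assembly factors rose, where that fit called 8.08% of all genes higher and 12.3% lower.

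Spatial order was also scored by the submitters. In the authors' deposited table, Moran's I, which is near 0 for a gene scattered at random over spots and nears 1 for one in smooth patches, had a median over the 74 subunits of 0.611 and 0.579 in the ICI-alone sections, against 0.560 and 0.303 in the antibody sections, against 0.0180, 0.0155, 0.0179 and 0.00869 over all genes listed. Genes with more counts had higher scores. A floor of 100 CPM in the counts was then set here. Among genes at or above it, the subunits' medians in the authors' deposited table were 0.625, 0.615, 0.579 and 0.334. Those of all such genes in the authors' deposited table were 0.276, 0.239, 0.204 and 0.0968. Antibody replicate 2, the shallowest library and the one with the fewest immune-rich spots, had the lowest median of the sections for the subunits and for all genes, and the part of depth was not tested. In the authors' deposited table the highest subunit in each section was Cox7a1 (0.880, 0.822, 0.868 and 0.680), followed in the mean of the sections by Cox8b and Cox6a2. Cox8c had the lowest mean (0.000881, -0.00283, 0.00860 and 0.00330). Cox6a1 stood at 0.343, 0.262, 0.166 and 0.0763 in the authors' deposited table, and Cox8a at 0.103, 0.0292, 0.106 and 0.0289.

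**Figure D5:**
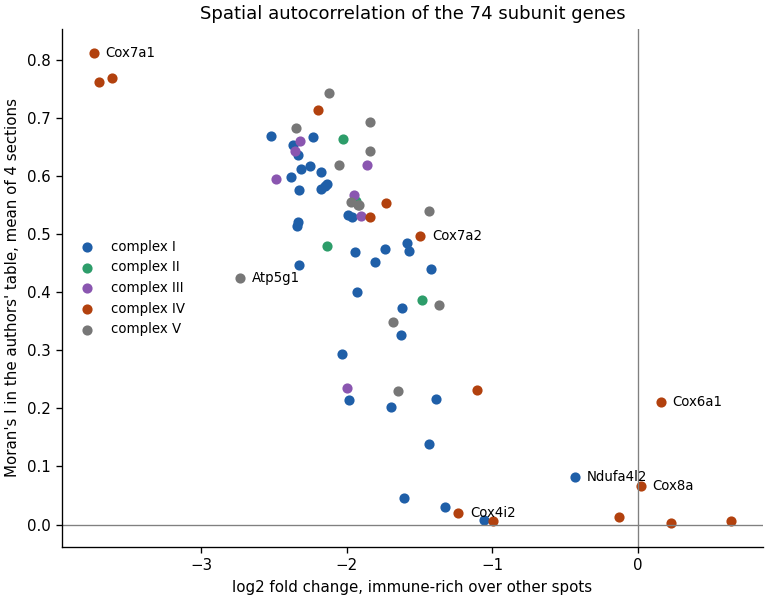
Moran's I from the authors' deposited table, averaged over the 4 sections, against the log2 fold change of immune-rich over other spots, 1 dot per subunit gene, coloured by complex. The muscle isoform Cox7a1 sits at the top left, and Cox6a1, Cox8a and Ndufa4l2 sit near the right with low scores.

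Outside every list, the genes whose levels tracked the summed subunits most closely over the 8 section and class sums were sought among 9120 genes. They were Crat (carnitine acetyltransferase), Acadvl (very long-chain acyl-CoA dehydrogenase), Echs1 (enoyl-CoA hydratase), Kcnip2 (a potassium channel subunit of heart muscle) and Cep68 (a centrosomal protein), with Pearson's r of 0.998 to 0.999 on mean-centred log CPM. The sums come in pairs from the same sections, so this describes likeness in these data. In immune-rich spots Crat fell by 2.48 and Kcnip2 by 4.75 on the log2 scale.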

How the data were processed

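The authors deposited, for each of the 4 sections, raw UMI counts of genes by spots that lie under tissue (the matrix header names Space Ranger 2.1.0) and a table of each gene's Moran's I score with an adjusted p-value. The submitters' processing notes name mm10 and Seurat 5.1.0. The probe set, the aligner's settings and the use made of Seurat are not given in the sources used here.

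Counts were summed per section, or per spot class and section, and tested with edgeR 4.0.16 (filterByExpr, TMM, quasi-likelihood, Benjamini-Hochberg at 0.05) in R 4.3.3, with limma 3.58.1 and DESeq2 1.42.0 as alternatives. Sums, ratios and figures used Python 3.11.15, numpy 2.4.6, scipy 1.17.1, pandas 2.3.3 and matplotlib 3.10.9. Treatment was fitted over 4 sections without a block, and spot classes with the section as a block. Immune-rich spots were set on counts thinned to 5000 UMIs per spot, with shallower spots left out (4 to 105 per section). Remote spots lay at least 4 grid steps from them. Atrial-rich spots had over 1% of UMIs on atrial genes. Total counts were 33005923 to 73167202 per section, and 66 of the 74 genes had over 1000 UMIs in every section. Position barcodes shared by section pairs numbered 2040 to 2239, since the slide design repeats them.

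The batch number in the labels pairs sections across groups, and deviations of same-batch sections correlated at 0.18 over 18817 genes. The fits were tested on simulated data with known changes in genes averaging at least 100 counts. A log2 change of 1 was recovered in 59% of such genes over whole sections, 95% for immune-rich spots and 15% for the interaction. For a change of 2 it was 100%, 100% and 88%. Few or no calls over whole sections and in the interaction therefore do not show that the subunits were unchanged. Members and lists were chosen with earlier results of these data known. Genes named were the isoform pairs, Cox4i2 and Ndufa4l2, the gene with the highest mean CPM in each complex, per test the 10 largest rises and falls past the threshold at 10 CPM or more (or the 4 smallest p where fewer than 4 passed), the extremes of Moran's I, up to 4 genes per other list and test, and 5 genes that tracked the members. Others were named after their values were seen, where a count of few genes is given. Alternatives changed the scaling, filter, test, replicate block, sections, thinning, spot classes and ratio denominators, and a setting without atrial-rich spots was added after seeing the data. Some genes that enter the counts are not reported here by name.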

Additional observations from a re-analysis of the deposited data

How the results depend on the processing

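The fall in immune-rich spots held its direction and count under every alternative run (67 to 69 calls), with a median log2 fold change from -2.05 to -1.70 without each section in turn, -0.97 with T cell and -1.44 with macrophage markers. Each alternative still chose spots by leukocyte genes, and both marker lists share genes with the panel, so these runs are not independent of each other. In whole sections, 1 subunit passed. The count was 5 with library size alone (9.93% of all genes called), 11 with DESeq2, 3 with a filter at 10 CPM (8.64%), 2 with sections thinned to an equal total (9.69%), 4 without edge spots (13.5%), 2 without the 20 most abundant genes (13.5%) and 0 with limma. Leaving out sections gave 0 to 22 calls and medians of 0.21 to 0.75. The replicate block gave 7 calls in whole sections and 5 in remote spots, and medians of 0.49 and 0.33. It changed no other call of a named subunit. In remote spots, DESeq2 gave 3 calls (2.3% of all genes called higher), and leaving out sections gave medians of 0.038 to 0.52.

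The interaction gave 0 to 55 calls when sections were left out and 1 (Ndufs8) at 5% of spots (3.91% of all genes). At the edge, DESeq2 gave 10 calls and no filter gave 1 (Cox4i2, with 2.76% of all genes). Leaving out sections gave 0 to 1 there (Cox4i2 without antibody replicate 1, with 5.59% of all genes), and the median was -0.078 with library size alone. The treatment difference of the subunit to cardiomyocyte ratio was 0.21 with Tnnt2 and Tnni3 as the denominator, -0.086 in remote spots and -0.29 to -0.12 without each section, and that of the isoform ratio was 0.40 in remote spots and 0.43 to 1.14 without each section. Signs turned for Cox8a in whole sections (0.061 with a filter at 10 CPM) and in immune-rich spots (-0.048 to 0.068 when sections were left out, with -0.0056 without antibody replicate 2, -0.059 at 20% of spots, -0.092 with T cell markers), and for Cox7a2 in whole sections (-0.038 to 0.36 when sections were left out). The cause was not tested. Of the other single-gene values, 679 kept their direction and side of the threshold, 41 came to pass it and 8 no longer passed it.

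The antibody sections are the shallower ones, so depth and treatment cannot be told apart. Thinning the section sums to an equal total evens only the counting error. Immune-rich spots number 82 in antibody replicate 2, against 510 in ICI-alone replicate 2. A spot holds several cells, so levels per cell were not measured.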
